A study of Mus musculus with 4 samples.

Results

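The 47 ribosomal protein genes described here were taken from a fixed list of cytosolic ribosomal protein genes, all matched by symbol to RefSeq genes of GRCm38.p6, among 20093 autosomal protein-coding genes placed on the same replication profile. For each, the profile window whose midpoint lay nearest the centre of the gene was used, at most 12.2 kb away, together with windows with midpoints within 250 kb. The profile was measured by TrAEL-seq, an assay of 3′ DNA ends that records which strand each end is on, in mouse embryonic stem cells (line 129S6/SvEvTac) grown with serum and LIF on gelatin. The groups were wild type (WT, 2 libraries) and a knockout of Snf2h, the ATPase of ISWI chromatin remodelling complexes, in the same line (genotype label SNF2KO, written KO, 2 libraries). Cultures were made in duplicate for each genotype and all libraries were sequenced in 1 lane. The labels do not say how many KO clones were used, so the p-values measure the spread between these cultures only, and the profile holds no expression value by which the knockout or the cell type could be checked. WT replicate 2 carries one index in its label and another in the table's header. KO replicate 1 had the widest profile, with an SD of polarity over windows of 19.4 points against 12.8 to 14.6 points in the other libraries. The deposited table gives no read counts, so depth is unknown, and 7641 to 8249 of 109033 windows had no value in a given library.

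Cytosolic ribosomes are built from a small subunit, which decodes the mRNA, and a large subunit, which joins amino acids. Every dividing cell makes each ribosomal protein in about equal number, and the genes are short, dispersed and among the most strongly transcribed by RNA polymerase II. In mammalian cells, replication forks set out in both directions from broad initiation zones, which often lie beside active genes, and meet in termination zones. On a strand-imbalance profile an initiation zone and a termination zone appear as steep changes of opposite sign. Values here are the imbalance of captured ends in 100 kb windows every 25 kb (polarity, in percentage points from -50 to 50). Which strand the authors counted as positive is not given in the sources used here, so rises and falls of the profile are described without assigning them to initiation or termination. Slope is the least-squares change of polarity over windows within 250 kb, in points per 100 kb, and it has the same sign whichever strand a gene is on.

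Most of the ribosomal protein genes lay where the profile rose. Mean slope over the 4 libraries was above 0 at 43 of 47 genes, with a median of 4.68 points per 100 kb, whereas it was above 0 in 44.8% of 94566 autosomal windows, with a median of -0.638. Over all protein-coding genes slope was above 0 in 63.2%, with a median of 1.83 points per 100 kb. Each library showed this separately: the median slope at the 47 genes was 4.52 and 3.51 points per 100 kb in WT replicates 1 and 2, and 5.99 and 3.98 in KO replicates 1 and 2. The number of genes with a slope above 0 was 43 and 42 in the WT pair, against 39 and 40 in the KO pair. In limma, with Benjamini-Hochberg adjustment over all windows, the 4-library slope was above 0 at 37 of the 47 genes and below 0 at 3. The background of such calls over windows was 34.7% above 0, 42.3% below 0 and 77% in either direction, and over all protein-coding genes 52.9% were called above 0 and 27.1% below. Slope was above 0 in all 4 libraries at 38 genes, against 35.3% of windows, and below 0 in all 4 at 4 genes, against 43.5%. Of the 47 genes, 28 were steeper than the upper quartile of all windows (3.21 points per 100 kb) and 15 were steeper than the 90th percentile (7.005).

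**Figure D1:**
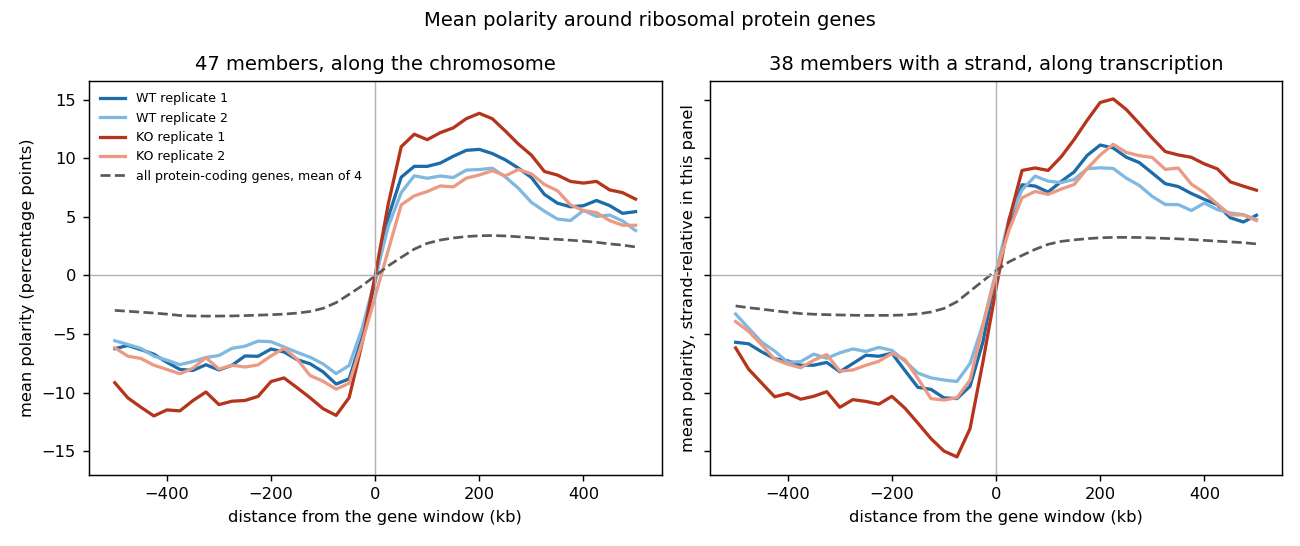
Mean polarity in percentage points (vertical axis) by distance in kb from each gene's window (horizontal axis), per library; the left panel follows the chromosome over 47 genes, the right panel follows transcription over the 38 genes with a strand, and the dashed line is the mean over all protein-coding genes. Polarity passes from negative to positive at the genes in all 4 libraries, from -7.85 points at 250 kb before to 9.77 points at 250 kb after in the mean of the 4.

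The mean profile changed from 1 side of the genes to the other. Averaged over the 47 genes, polarity 250 kb before the gene was -6.88 and -6.04 points for WT, with -10.7 and -7.82 points for KO. At the gene itself it was -0.475 and -0.269 points in WT libraries, and -0.000132 and -1.79 points in KO libraries. At 250 kb after the gene it was 9.87 and 8.41 points in the WT pair, against 12.3 and 8.50 points in the KO pair. All 4 libraries therefore went from negative to positive across these genes, and the mean of all protein-coding genes went from -3.43 to 3.37 points over the same distance. Between the 2 windows that meet at the gene's window midpoint, 1 ending and 1 starting there, the median step was 15.6 and 13.9 points for WT, with 20.9 and 11.9 points for KO. The 4-library step was above 0 at 44 of 47 genes, with a median of 13.3 points. Over all windows the median step was -1.71 points and 42.1% were above 0, and over all protein-coding genes it was 2.34 points and 57.1% were above 0. Slopes taken over a shorter distance were steeper at these genes, with a median of 10.7 points per 100 kb within 100 kb and 2.47 within 500 kb. The same medians over all windows were -1.45 and -0.162.

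Polarity at the genes themselves was typically nearer 0 than over all windows. Median absolute polarity of the 4-library mean was 6.22 points at the 47 genes, 10.3 points at all protein-coding genes and 11.1 points over all windows. It was below 10 points at 33 genes and in 45.8% of windows. In limma the 4-library polarity differed from 0 at 27 of 47 genes, 14 above and 13 below, against a background of 74.3% of windows (36.8% above and 37.5% below). By library the median absolute polarity was 5.11 and 6.20 points in WT libraries, and 9.25 and 6.70 points in KO libraries. Rising segments of the mean profile, called where a running mean of 5 windows climbed without reversal by at least 1 SD of the mean profile, held 32 of the 47 genes. Falling segments held 0 and the other 15 genes lay in neither. All autosomal windows were divided into 26.1% rising and 39.8% falling, and protein-coding genes into 43.4% and 25.1%. In single libraries, rising segments held 30 and 34 genes in WT and 32 in each KO library, and falling segments held 1 and 0 in the WT pair, against 2 and 0 in the KO pair. The midpoint of the nearest rising segment was a median of 70.7 kb from the gene, within 100 kb for 29 genes (61.7%). For all protein-coding genes the median was 158 kb and 34.8% lay within 100 kb.

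The steepest rises were at Rpl24, Rps7, Rpl37, Rps13 and Rps20. Rpl24, a large-subunit protein at the bridge between the subunits, lies at 55966275 to 55971437 on chromosome 16 of GRCm38. Its slope was 15.2 and 13.9 points per 100 kb for WT, with 19.1 and 14.5 for KO, a mean of 15.7 (SE 0.785). The KO libraries overlapped the WT libraries, since KO replicate 2 lay between them. Rps7, a small-subunit protein that can bind the p53 regulator Mdm2, lies at 28630847 to 28635953 on chromosome 12, with slopes of 15.1 and 11.4 points per 100 kb in WT libraries, and 17.7 and 14.8 in KO libraries. Rpl37, a zinc-binding large-subunit protein on chromosome 15 (5116613 to 5119140), had 14.3 and 11.7 in the WT pair, against 18.9 and 12.9 in the KO pair, and the highest step of the 47, 41.7 points. KO replicate 1 was the highest library at each of these genes. Rps13, a small-subunit protein on chromosome 7 (116331507 to 116334190), had 8.88 and 8.49 points per 100 kb for WT, with 15.1 and 10.5 for KO, both KO libraries above both WT libraries. Rps20, a protein of the small-subunit head on chromosome 4 (3831584 to 3835655), had 11.99 and 8.85 in WT libraries, and 12.8 and 8.75 in KO libraries. Next in order were Rps12 at 10.3 points per 100 kb and Rpl15, a core large-subunit protein, also at 10.3. At Rps6, the small-subunit protein phosphorylated after mTOR signalling, the 4 libraries differed little, with 10.0 and 10.1 in the WT pair, against 10.1 and 9.91 in the KO pair.

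The start sites of the genes were read for letter strings, which the choice of genes did not use. RefSeq's table of starts (GRCm38.p6, 250 bases before to 50 after each start) held 38 of the 47 genes. The letters CTTCCG, which contain the core recognised by ETS-family transcription factors, were found on either strand (the other strand reads CGGAAG) in 26 of the 38 first-listed starts (68.4%), against 22.2% of 16066 protein-coding genes. The letters CTCTTTC, of the pyrimidine-rich kind found at starts of ribosomal protein mRNAs, were found on either strand in 11 of 38 (28.9%) against 7.61%. These letter strings were chosen after values were seen, and neither contains the other. CTTCCG was found at all 6 of the steepest genes in the table and at 20 of the other 32 (62.5%), a difference that was not tested. The listed start of Rps12, among the 6, lies inside its gene interval, and its stretch is not shown. The other stretches around the match nearest the start are given 5′ to 3′ on the gene's strand, with the match in capitals. At Rps13 and Rpl15 the match begins at -187 and -61 bases from the start, and the stretch does not contain the start.
Rpl24, chr16:55966263-55966304, plus strand: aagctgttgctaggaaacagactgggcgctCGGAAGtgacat
Rps7, chr12:28635924-28635976, minus strand: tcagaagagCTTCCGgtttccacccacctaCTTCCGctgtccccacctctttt
Rpl37, chr15:5116579-5116642, plus strand: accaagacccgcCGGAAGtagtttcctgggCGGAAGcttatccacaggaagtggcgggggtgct
Rps13, chr7:116334342-116334407, minus strand: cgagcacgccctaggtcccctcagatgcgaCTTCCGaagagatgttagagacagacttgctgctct
Rpl15, chr14:18271012-18271077, minus strand: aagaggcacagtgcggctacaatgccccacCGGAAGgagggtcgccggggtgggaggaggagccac
A match is a description of these letters. The profile has a resolution of 100 kb and does not bear on single sites.

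**Figure D2:**
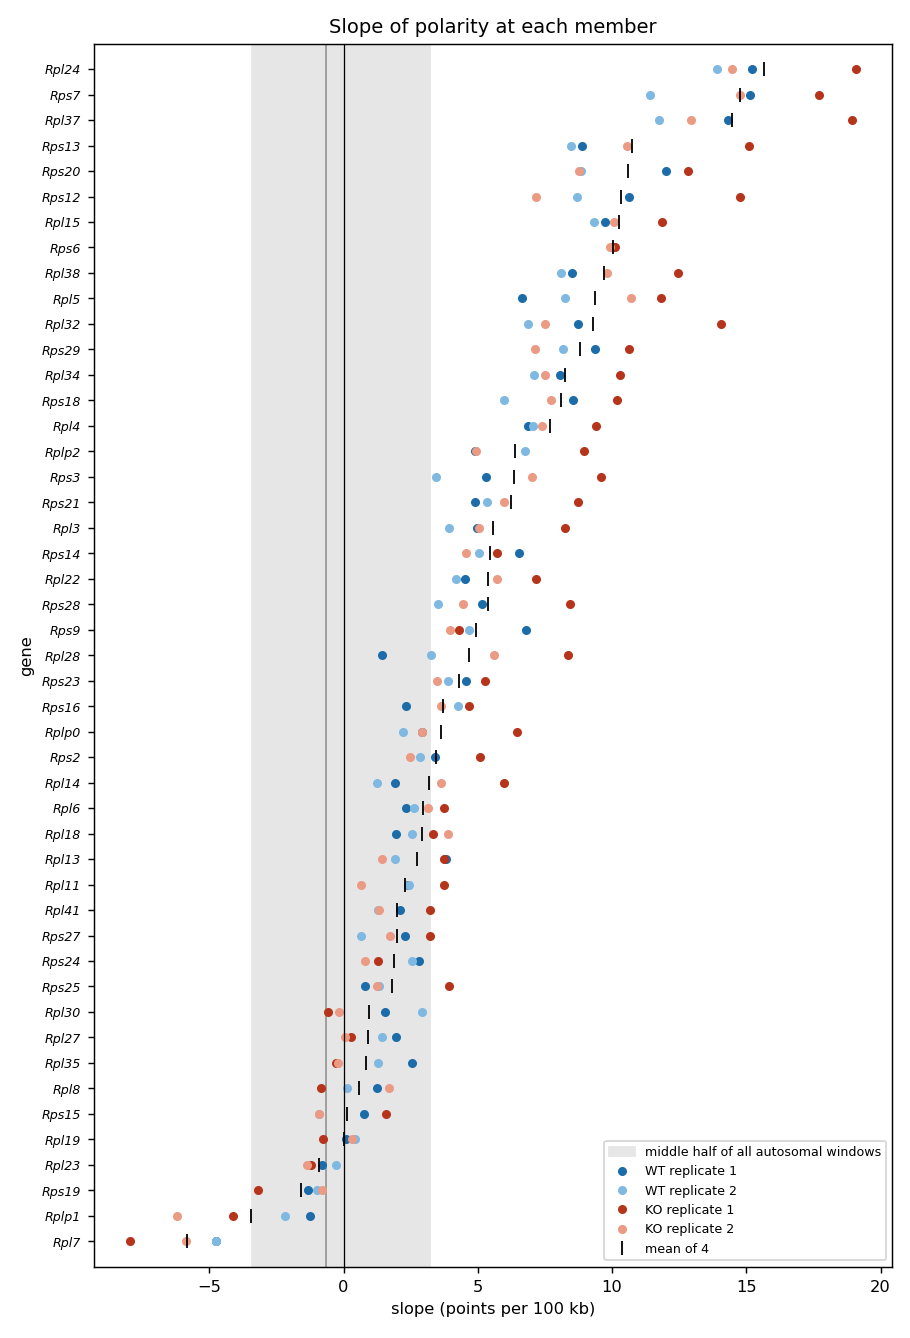
Slope of polarity in points per 100 kb (horizontal axis) at each of the 47 genes (vertical axis, ordered by the 4-library mean); dots are libraries, black ticks their means, the grey band spans the quartiles of all autosomal windows and the grey line their median. The mean lies right of 0 at 43 genes and beyond the upper edge of the band, 3.21, at 28.

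Slope was below 0 at Rpl7, Rplp1, Rps19 and Rpl23. The lowest slope was at Rpl7, a large-subunit protein gene on chromosome 1 (16101295 to 16104433), at -4.74 and -4.75 points per 100 kb for WT and -7.95 and -5.87 for KO (mean -5.83, SE 0.618; limma adjusted p = 1.35e-05). Rplp1, a protein of the large-subunit stalk that recruits translation factors, on chromosome 9 (61913283 to 61914510), had -1.25 and -2.18 in WT libraries, and -4.11 and -6.20 in KO libraries (mean -3.43; limma adjusted p = 0.000572). Slope was below 0 in all 4 libraries at both genes, which lay in no rising or falling segment. The step across the window at Rpl7 was 6.28 and 7.11 points for WT and -15.1 and 12.8 points for KO, below 0 in KO replicate 1 alone. At Rplp1 it was above 0 in each library, with 14.5 and 5.45 points for WT and 23.0 and 6.80 points for KO. Rps19, the small-subunit gene most often mutated in Diamond-Blackfan anaemia, had a slope of -1.57 points per 100 kb (limma adjusted p = 0.0422), with -1.32 and -0.986 in the WT pair, against -3.18 and -0.805 in the KO pair. Its centre nevertheless lay in a rising segment whose midpoint was 25.3 kb away, its step was 18.4 and 14.4 points for WT and 22.5 and 23.3 points for KO, and its chromosome 7 position is 24884592 to 24889811. Rpl23, on the face of the large subunit that meets the small subunit, had -0.820 and -0.287 for WT, with -1.20 and -1.38 for KO, a mean that did not pass the test (-0.921; limma adjusted p = 0.166). Rpl19, another large-subunit protein gene, had 0.0933 and 0.441 in WT libraries, and -0.783 and 0.316 in KO libraries (limma adjusted p = 0.980). Rpl23 and Rpl19 are neighbours on chromosome 11, 246 kb apart, and so share windows in their slopes. The step was above 0 in each library at Rpl19, with WT values of 12.6 and 18.7 points and KO values of 13.5 and 18.4 points, and at Rpl23, with WT values of 6.18 and 2.39 points and KO values of 9.60 and 4.34 points. The other 5 genes that did not pass the test in either direction were Rpl30, Rpl27, Rpl35, Rpl8 and Rps15, with mean slopes between 0.124 and 0.936 points per 100 kb.

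Rps28 and Rps18, both small-subunit genes on the minus strand of chromosome 17, are 130 kb apart and share much of a rise. Rps28, where the mRNA leaves the small subunit, had a polarity of -13.1 and -7.32 points in the WT pair, against -9.33 and -10.4 points in the KO pair. Rps18, in the head of the small subunit, had 9.52 and 6.52 points for WT, with 20.4 and 8.29 points for KO. Polarity thus changed sign between the 2 genes in all 4 libraries. Relative to their common strand the pair took opposite signs, 10.1 points at Rps28 and -11.2 points at Rps18.

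**Figure D3:**
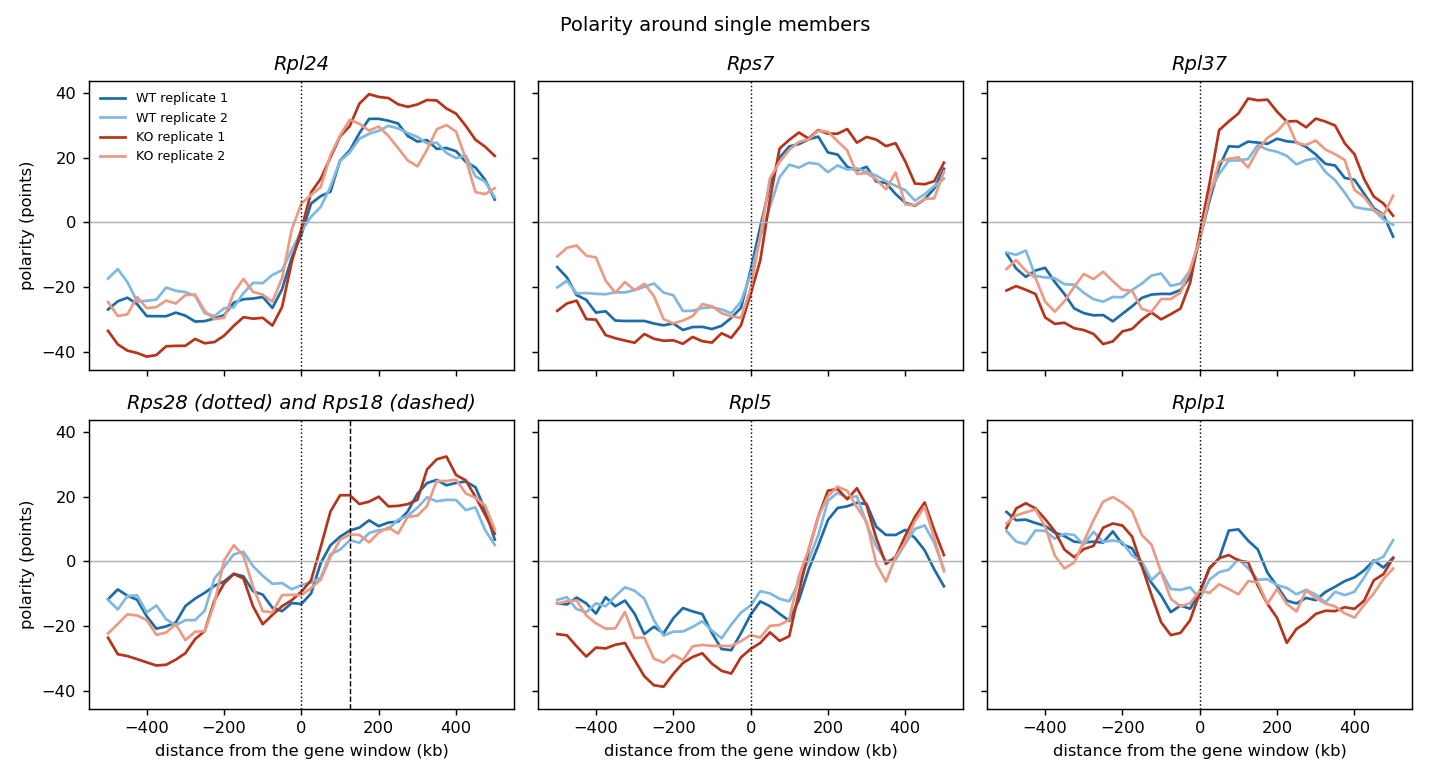
Polarity in percentage points (vertical axis) by distance along the chromosome in kb from the gene's window (horizontal axis) around 6 windows, per library; dotted lines mark the named gene and the dashed line marks Rps18. The curves cross 0 within 50 kb of Rpl24, Rps7 and Rpl37 and between Rps28 and Rps18, at Rpl5 they cross between 100 and 200 kb after the gene, and at Rplp1 they go from above 0 at 250 kb before to below 0 at 250 kb after.

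The next comparison was of polarity with the direction of transcription. The strand of 38 genes (24 plus and 14 minus) was read from the table of starts. Rpl3, Rpl7, Rpl8, Rpl30, Rpl32, Rplp1, Rps14, Rps20 and Rps29 were described without strand. Strand-relative polarity is polarity multiplied by -1 for genes on the minus strand. It was above 0 at 19 of 38 genes, with a median of -0.104 points, against 51.1% and 0.415 points over 16066 protein-coding genes. By library the median was -0.781 and 0.510 points in WT libraries, and -0.0726 and 1.12 points in KO libraries, with 18 and 19 genes above 0 in WT and 19 and 21 in KO. The sign was positive in all 4 libraries at 15 genes, negative in all 4 at 14 and mixed at 9. The matching shares over all protein-coding genes were not computed. Neither sign prevailed, and large-subunit genes (8 of 21 above 0, median -1.10 points) and small-subunit genes (11 of 17, median 4.85 points) differed in their counts, a difference that was not tested. The nearest rising segment lay ahead of the gene along its strand at 17 genes and behind it at 21, against 7862 and 8204 of the 16066 protein-coding genes.

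**Figure D4:**
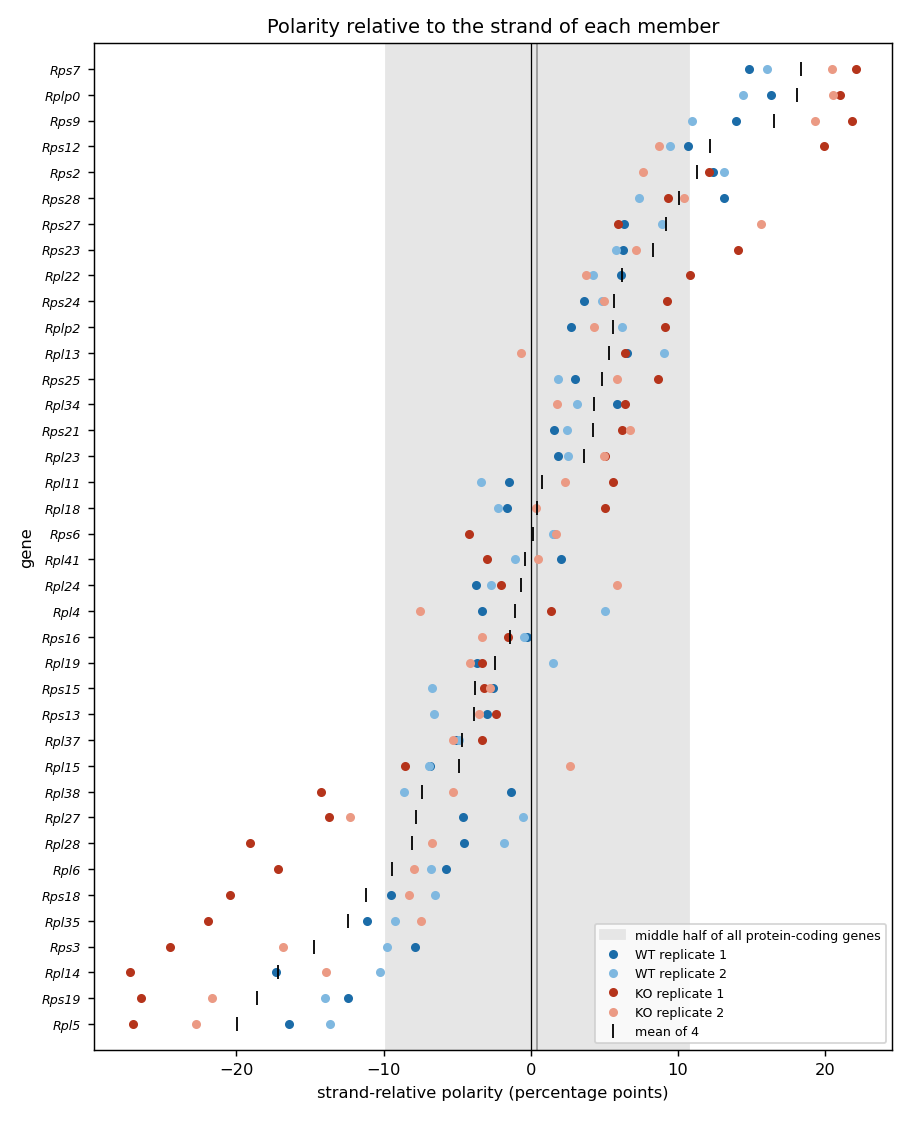
Strand-relative polarity in percentage points (horizontal axis) of the 38 genes with a strand (vertical axis, ordered by the 4-library mean); dots are libraries, black ticks their means, the grey band spans the quartiles of all protein-coding genes and the grey line their median. Genes are spread on both sides of 0, 19 on each, from -19.9 points at Rpl5 to 18.3 points at Rps7.

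The 5 genes with the highest and the 5 with the lowest mean strand-relative polarity kept their sign in all 4 libraries. Their selection by that mean makes such agreement likely. The highest strand-relative values were at Rps7, with 14.8 and 16.1 points in the WT pair, against 22.1 and 20.4 points in the KO pair, and at Rplp0, the base of the large-subunit stalk, at 16.3 and 14.4 points for WT and 20.996 and 20.5 points for KO. Rps9, a small-subunit protein at the mRNA entry, had 13.9 and 11.0 points in WT libraries, and 21.8 and 19.3 points in KO libraries. At these 3 genes both KO libraries were farther from 0 than both WT libraries. Rps12 followed with a mean of 12.2 points, and its genotypes overlapped, with WT values of 10.7 and 9.42 points and KO values of 19.9 and 8.73 points. At Rps2, also at the mRNA entry, the mean was 11.3 points and both KO libraries (12.1 and 7.63 points) lay below both WT libraries (12.4 and 13.1 points). The lowest values were at Rpl5, which with Rpl11 and a ribosomal RNA forms the particle that restrains Mdm2. Rpl5 had -16.4 and -13.6 points in the WT pair, against -27.0 and -22.7 points in the KO pair. Rps19 had -12.4 and -14.0 points for WT, with -26.4 and -21.7 points for KO. Rpl14, on the solvent side of the large subunit, had -17.3 and -10.3 points in WT libraries, and -27.2 and -13.9 points in KO libraries. Rps3, which lines the mRNA entry, had -7.83 and -9.74 points in the WT pair, against -24.5 and -16.9 points in the KO pair, and Rpl35, beside the exit tunnel, had a mean of -12.4 points, from WT values of -11.1 and -9.25 points and KO values of -21.9 and -7.46 points. KO replicate 1 was the lowest library at each of these 5 genes.

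Loss of Snf2h was compared gene by gene, by limma over all 94566 windows. No gene of the 47 passed the threshold for polarity (0 of 47; lowest adjusted p = 0.240), with 5 genes at an unadjusted p-value under 0.05. The background was 0.0835% of windows called, and 12.1% at an unadjusted p-value under 0.05. For slope the count was also 0 of 47 (lowest adjusted p = 0.211), with 6 genes at an unadjusted p-value under 0.05, against 0.0159% of windows called and 14.2% unadjusted. With KO replicate 2 left out, limma called 9 of the genes for polarity and 17 for slope, which rest on KO replicate 1 alone and assume that it varies like WT, and with KO replicate 1 left out it called 0 and 1 (Rplp1). Over all windows the shares called were 19.9% for polarity and 26.7% for slope without KO replicate 2, and 5.76% and 9.08% without KO replicate 1. With the replicate number as a block, limma called 1 gene for polarity (Rps29) and 4 for slope (Rpl28, Rps13, Rps3 and Rpl5), against 2.74% and 7.79% of windows. With the block and libraries scaled to a common SD, it called 0 for polarity (Rps29 adjusted p = 0.145) and 1 for slope (Rpl28). The windows called under that setting numbered 3191 for polarity and 6800 for slope, of 94566. In polarity the KO pair was entirely above the WT pair at 10 genes, against 22.2% of windows, and entirely below it at 12, against 22.5%. Such separation, in either direction, was found in 44.6% of windows.

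The widest separated differences in polarity were at Rps29, Rps3, Rps19, Rpl27 and Rpl5. Rps29, a zinc-binding small-subunit protein on chromosome 12 (69157722 to 69159186), had -18.5 and -12.2 points in WT (-15.3 ± 4.43, SD, n = 2), whereas the KO values were -32.9 and -27.0 points (-29.96 ± 4.16, SD, n = 2). KO minus WT was -14.6 points (SE 4.67; limma adjusted p = 0.240). At Rps3 KO exceeded WT by 11.9 points (SE 4.64; limma adjusted p = 0.331), with 8.79 ± 1.34 points for WT and 20.7 ± 5.40 points for KO (SD, n = 2 each). Rps19 had means of -13.2 points in WT and -24.1 points in KO (limma adjusted p = 0.357), and its difference of -10.9 points became -7.05 with libraries scaled to a common SD. The difference at Rpl5, -9.84 points, became -5.92 with that scaling. Rpl27, a large-subunit protein gene on chromosome 11, had -4.62 and -0.532 points for WT, with -13.7 and -12.3 points for KO (limma adjusted p = 0.375). Polarity was farther from 0 in the KO mean than in the WT mean at 34 of the 47 genes (72.3%) and in 68.6% of windows. The median absolute polarity was 1.41 times higher in KO over these genes and 1.23 times over all windows. After division of each library by its SD of polarity the ratios were 1.13 and 0.995. Over these genes the divided medians were 0.349 and 0.483 in WT libraries, and 0.475 and 0.462 in KO libraries. WT replicate 2 was therefore above both KO libraries, and the difference of 0.0524 was smaller than the pooled replicate SD of 0.0673.

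**Figure D5:**
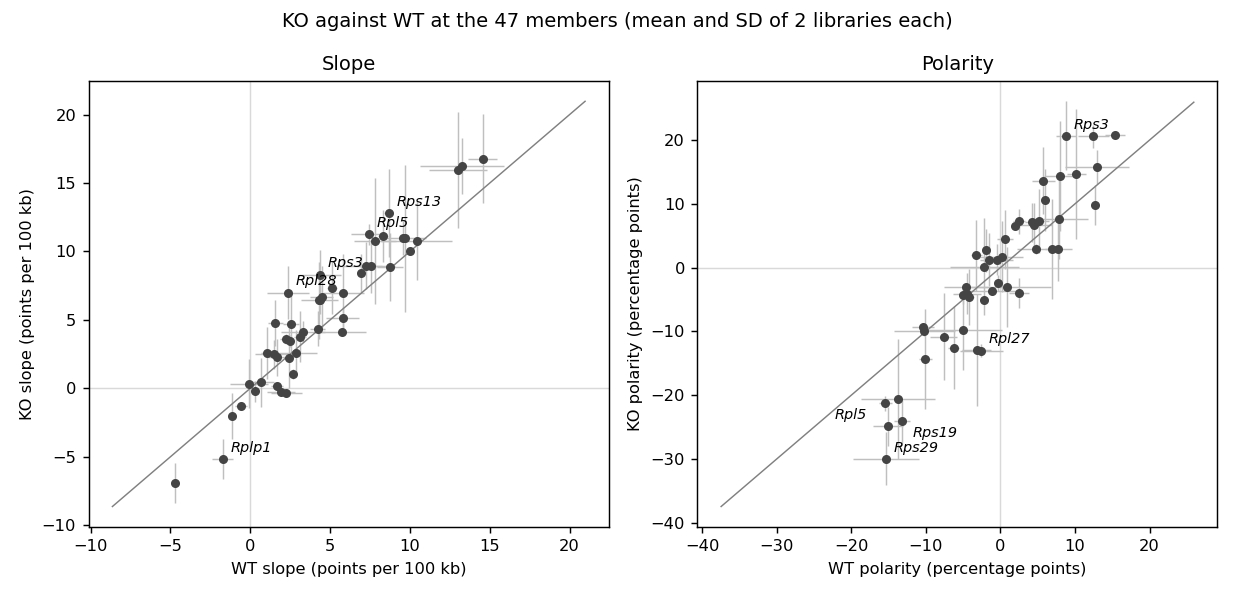
KO mean (vertical axis) against WT mean (horizontal axis) of slope in points per 100 kb (left) and polarity in percentage points (right) at the 47 genes; bars are SDs of 2 libraries and the line marks equality. Slopes were higher in KO at 32 genes and lower at 15, and no gene passed the limma threshold.

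Slope was higher in the KO mean at 32 genes and lower at 15, and it was higher in 49.0% of windows and at 57.8% of protein-coding genes. It was farther from 0 in the KO mean than in the WT mean at 36 of the 47 genes (76.6%) and in 65.3% of windows. The median over the 47 genes was 4.02 ± 0.717 points per 100 kb for WT and 4.99 ± 1.42 for KO (SD, n = 2 per genotype). The difference of 0.970 was smaller than the pooled replicate SD of 1.13, and without KO replicate 1 it was -0.0353. The KO to WT ratio of 1.24 became 1.00 when each library was divided by its SD of polarity. Both KO libraries were above both WT libraries at 13 genes and below at 8, against 22.3% and 24.5% of windows, or 46.7% in either direction. The widest separated differences were at Rpl28, with 1.45 and 3.27 points per 100 kb in WT libraries, and 8.37 and 5.62 in KO libraries (difference 4.63, SE 1.36; limma adjusted p = 0.211), and at Rps13 (difference 4.14, SE 1.54; limma adjusted p = 0.282). The difference at Rps13 was 1.85 without KO replicate 1, 6.42 without KO replicate 2 and 1.8003 with each library scaled to a common SD. Rpl28, a large-subunit protein gene, lies at 4792965 to 4794547 on chromosome 7. Rps3 had 5.31 and 3.45 points per 100 kb in the WT pair, against 9.59 and 7.04 in the KO pair, and Rpl5 had 6.65 and 8.25 for WT, with 11.8 and 10.7 for KO, a difference of 3.80 that became 1.89 with that scaling. Rplp1 differed in the other direction, by -3.43 points per 100 kb (limma adjusted p = 0.276).

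Genes of the same machinery were read from lists in the same way. The 31 other autosomal cytosolic ribosomal protein genes had a median slope of 3.47 points per 100 kb, with 25 above 0, and limma placed 21 above 0 and 1 below. Their median step was 11.3 points, with 30 of 31 above 0. Their median absolute polarity was 8.91 points, and limma called 22 of 31 different from 0 (71.0%, against 74.3% of windows), 5 above and 17 below. The 34 genes of translation factors had a median of 5.37 points per 100 kb, 29 above 0, with 24 called above and 3 below. The 39 genes of ribosome assembly, of which Eif6 is also on the list of translation factors, had a median of 2.89, 33 above 0, with 26 called above and 4 below. The 78 genes of mitochondrial ribosomal proteins, which serve the separate ribosome of that organelle, had a median of 3.30, 62 above 0, with 56 called above and 9 below. The 47 genes typical of adult tissues had a median of 1.12, 29 above 0, with 20 called above and 14 below. Rising segments held 67.7% of the other cytosolic ribosomal protein genes, 70.6% of translation factor genes, 59.0% of assembly genes, 56.4% of mitochondrial ribosomal protein genes and 38.3% of adult tissue genes, beside 68.1% of the 47. Falling segments held 0 of the translation factor genes, as of the 47. The median step was 13.2 points at translation factor genes, 10.4 at mitochondrial ribosomal protein genes, 8.69 at assembly genes and 1.44 at adult tissue genes. Median absolute polarity in the same order was 7.46, 8.27, 8.06 and 10.5 points. Differences between lists were not tested. None of these lists had a gene called between genotypes in limma (count 0 each for polarity and slope). At an unadjusted p-value under 0.05, where windows gave 12.1% for polarity and 14.2% for slope, there were 2 and 4 of the 31 cytosolic ribosomal protein genes and 12 and 7 of the 78 mitochondrial ones. There were 2 and 8 of the 34 translation factor genes, 3 and 6 of the 39 assembly genes and 2 and 3 of the 47 adult tissue genes.

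Ribosomal protein genes lay among many genes. A median of 11 protein-coding genes had their centre within 250 kb of the window (3 to 32), against 9 around all protein-coding genes and 2 around all windows. Where 6 to 10 genes lay within 250 kb, the 13 members had a median slope of 9.35 points per 100 kb and the 14934 windows one of 1.93. Where 11 to 20 genes lay there, the medians were 3.63 over 15 members and 1.55 over windows. With more than 20 genes they were 3.45 over 11 members and 1.27 over windows, and with 3 to 5 genes 3.74 over 8 members and 1.06 over windows. The median over members was thus the higher value at each of these densities. The part of gene density in the slopes was not otherwise tested.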

How the data were processed

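The 4 TrAEL-seq libraries took their genotype and replicate number from the labels. Per the file headers, the authors mapped the reads by bowtie2 against GRCm38 plus rRNA and removed duplicates; Trim Galore 0.6.5 and Bowtie2 2.4.1 are named in the submitters' processing notes. Each deposited value is a signed score of strand imbalance in percentage points per window, and the program that computed it is not given in the sources used here. Full-length autosomal windows with values in all libraries and at least 11 of up to 21 windows for a slope were kept (94566). Fits used limma 3.58.1 in R 4.3.3 on polarity and slope, with Benjamini-Hochberg adjustment over all windows and a threshold of 0.05; Python 3.11.15, numpy 2.4.6 and pandas 2.3.3 did the rest. The test of the 4-library mean against 0, the step, the letter search and the X-linked genes were chosen after seeing the data. Members and lists were chosen with earlier results of these data known. Members were named by the 5 highest and lowest values of strand-relative polarity and slope, by the 5 widest KO minus WT differences among separated genes, and as neighbours or as further examples chosen after seeing their values. The fits were tested on simulated data, with shifts of 30 points in polarity and 12 points per 100 kb in slope. Noise was drawn separately for each window, although neighbouring windows overlap. They recovered nearly all of the shifted windows, and the share of false calls was above the threshold for both polarity and slope. The widest KO minus WT differences at members were -14.6 points and 4.63 points per 100 kb. Recovery of shifts of that size was not tested. Alternatives covered scaling, the replicate block, window choice, slope width, segment settings and omission of libraries. No interval for counting error was computed, since depth is unknown.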

Additional observations from a re-analysis of the deposited data

How the results depend on the processing

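The count of windows that limma called between genotypes moved most. For polarity it was 79, and 2588 with the replicate block, 699 after standardising, 3191 with both, 17 over windows that do not overlap, 1144 with trend and robust options and 0 on an atanh scale (10491 unadjusted). Omission of a library gave 29 to 18839. For slope it was 15, and 7371 with the block, 4605 standardised, 6800 with both, 3 over windows that do not overlap, 4075 with trend and robust options, 31 with slopes within 500 kb, and 80 to 84 without a WT and 8589 to 25212 without a KO library. Members called for polarity numbered 0, 1 with the block, 0 with block and standardising and 0 to 9 with a library omitted. For slope they numbered 0, 4 with the block, 1 with block and standardising, 1 with trend and robust options and 0 to 17 with a library omitted. The cause was not tested. The labels do not say that a replicate number marks a shared culture or day. The deviations of same-numbered libraries correlated at 0.241 for polarity and 0.321 for slope, over 2 pairs. The block was fitted for the KO minus WT differences, and not for the tests against 0. The KO minus WT difference in median strand-relative polarity, 0.659 points (pooled SD 0.879; 0.708 and 0.610 within replicate numbers), was 0.0136 to 1.30 with a library omitted, -0.275 over windows within 250 kb, -0.741 as a mean over members and 1.89 with neighbours counted once. Median slope, 4.68, was 10.7 within 100 kb and 2.47 within 500 kb. Members in rising segments, 32, were 31 to 41 under all alternatives, and members called with slope above 0, 37, were 31 to 39. Precision is limited by 2 libraries per genotype and by unknown depth.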

Other observations

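The 4 ribosomal protein genes of the X chromosome, chosen after the autosomal values were seen, also lay where polarity climbed. Slope was above 0 in all 4 libraries at each of Rpl10, Rpl36a, Rpl39 and Rps4x, with means of 4.46, 6.21, 4.08 and 9.46 points per 100 kb. At Rps4x, a small-subunit protein gene, the WT values were 8.98 and 8.55 points per 100 kb and the KO values 13.5 and 6.78. At Rpl39 the range was widest, from 0.363 in WT replicate 2 to 9.13 in KO replicate 2. Over 5835 windows of X the median was -0.975 and 42.8% were above 0. No test was made on X.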
